A study of Mus musculus with 2 samples.

Results

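Mir126a and Mir126b are overlapping microRNA genes on opposite strands of an intron of Egfl7, a gene for a protein secreted by endothelial cells. They were chosen by name, as the 2 of the 2202 genes in the count tables whose identifiers map to Mir126a or Mir126b in the GENCODE M21 annotation. Their reads were measured by microRNA-seq in calf muscle, the gastrocnemius, taken at 36 days of age from B6CASTF1/J males. This strain is an F1 cross between C57BL/6J and CAST mice, and the labels name no treatment. The 2 libraries, replicates 1 and 2, form 1 group and are described as coming from different males. The series holds no second condition, so the comparisons below are between the strands of the locus, among microRNA genes and between the libraries.

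A microRNA is cut from a hairpin in a longer transcript, and either arm of the hairpin can be kept as the mature strand. Bases 2 to 8 of the mature strand, the seed, guide it to messenger RNAs, which it represses. miR-126 is the classic microRNA of endothelial cells, and blood cell precursors and platelets carry it too. Its 3p strand is known to repress Spred1 and Pik3r2, brakes on signalling by vascular growth factors, and mice that lack it have fragile, leaky vessels. Muscle fibres are wrapped in capillaries, so whole muscle holds endothelial RNA beside that of the fibres. In such bulk samples, fewer cells of a type and less RNA per cell cannot be told apart. The tables hold microRNAs alone, so endothelial messenger RNAs such as that of Egfl7 were not measured.

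The mature strands listed for the locus by RefSeq (GRCm38.p6, the mm10 genome) are shown first, because the strand comparison turns on how they relate. Capitals mark the seed.
mmu-miR-126a-3p: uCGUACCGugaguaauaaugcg
mmu-miR-126b-5p: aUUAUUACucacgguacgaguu
mmu-miR-126b-3p: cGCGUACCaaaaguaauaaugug

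The 3 strands have 3 different seeds, and no other mature strand among the 1738 in the RefSeq table carries any of them. The seeds of miR-126a-3p and miR-126b-3p share a run of 6 bases, CGUACC, shifted by 1 position. Over their whole length these strands matched at 17 of 22 aligned bases, the best ungapped alignment. miR-126b-5p is instead the reverse complement of miR-126a-3p over 19 of 19 overlapping bases, so it is read from the same stretch of DNA in the other direction. miR-126a-5p, the strand of the other arm of Mir126a, is not in the list used here. Its seed and its relation to the strands shown were therefore not compared.

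The hairpins are given next, with the listed mature strands in capitals.
Mir126a: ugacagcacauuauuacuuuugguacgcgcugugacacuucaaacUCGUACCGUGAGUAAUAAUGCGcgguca
Mir126b: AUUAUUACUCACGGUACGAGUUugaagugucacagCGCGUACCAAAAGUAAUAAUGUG

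Mir126a (ENSMUSG00000065540.1) covers 73 bases of the plus strand of chromosome 2, from 26591357 to 26591429. Mir126b (ENSMUSG00000105799.1) covers 58 bases of the minus strand, from 26591363 to 26591420. It therefore lies wholly within Mir126a, is the exact reverse complement of those 58 bases, and leaves 6 bases of Mir126a free on the upstream side and 9 on the downstream side. Both strands of this window folded to nearly the same predicted minimum free energy in RNAfold, −19.4 kcal/mol with 20 base pairs for the plus strand and −19.3 kcal/mol with 21 for the minus strand. The whole Mir126a hairpin reached −31.2 kcal/mol.

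Egfl7 itself runs on the plus strand from 26580014 to 26593120, in the direction of Mir126a and against that of Mir126b. Of its 19 annotated transcripts, 9 span the hairpin, and in 8 of these it is intronic. In most of the protein-coding ones the intron is 600 bases long, between an exon that ends at 26591063 and one that starts at 26591664. The remaining spanning transcript, Egfl7-206, is annotated as a retained intron and holds the hairpin in its exon from 26590899 to 26591563. The locus is isolated among microRNA genes. Its nearest neighbour in the tables, Mir6996, lies 121238 bases away and had 1 read in replicate 1 and 0 in replicate 2.

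The libraries held 4134880 and 3219740 reads on the annotated strand of a microRNA. These counted reads were 20.96% and 19.2% of all reads, and 70.4% and 73.3% of all reads had more than 1 alignment and, from the layout of the tables, were added to no gene. Apart from each other, the longest stretch that either hairpin shares with any of the other annotated hairpins, on either strand, is 12 bases, with Mir6405. The 3 mature strands shown are 22 or 23 bases long, and matches outside annotated hairpins were not searched.

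Almost all reads of the locus came from the Egfl7 strand. Mir126a had 353172 reads on its own strand in replicate 1 and 308556 in replicate 2. Mir126b had 5 reads in replicate 1 and 0 in replicate 2. The members thus do not overlap in level in either library, and only Mir126a was found in both.

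In CPM, a gene's reads per 1000000 counted reads of its library, Mir126a stood at 85413 in replicate 1 and 95833 in replicate 2, or 90623 ± 7368 (SD, n = 2). Its share of counted reads was 8.54% in replicate 1 (95% interval 8.51 to 8.57, exact Clopper-Pearson) and 9.58% in replicate 2 (9.55 to 9.62). Such intervals describe counting error alone. They take each read as a separate molecule, so copies made by PCR would make them too narrow. The libraries lay further apart than these intervals allow. With 1 library per animal, a difference between animals cannot be told apart from one between libraries. Of all reads, including those counted in no gene, Mir126a took 1.79% and 1.84%. The counts join both arms of a hairpin, so the 5p and 3p strands of Mir126a are not told apart here.

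Mir126b reached 1.21 CPM in replicate 1 and 0 in replicate 2, where a count of 0 allows up to 0.932 CPM. The difference between its libraries was not detectable at this depth. Mir126a exceeded it 70634-fold in replicate 1, with an exact counting interval of 30267-fold to 217541-fold. In replicate 2 the same exact interval gave at least 83644-fold. Taking 3 reads as the limit that a count of 0 allows gave 102852-fold.

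**Figure D1:**
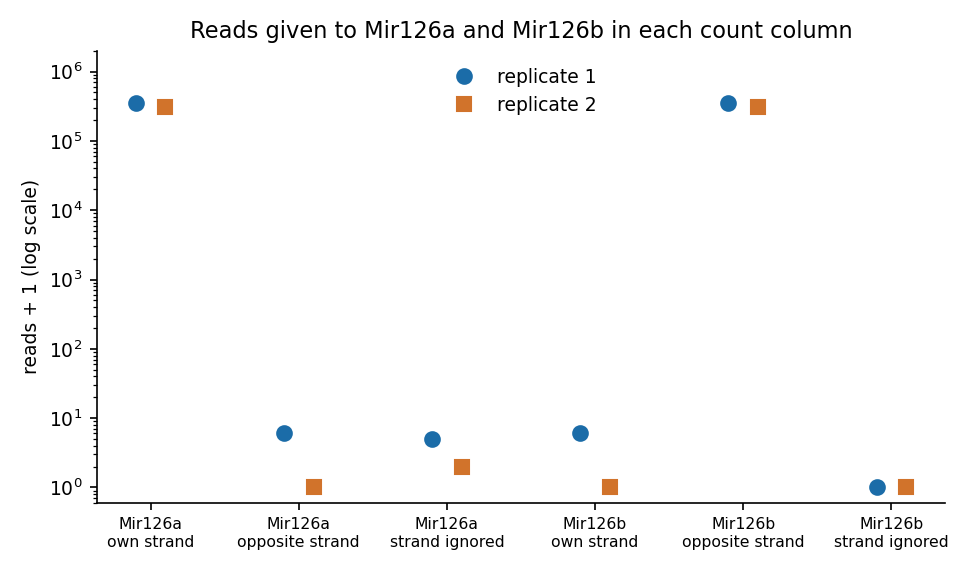
Reads + 1 (log scale) given to Mir126a and Mir126b in the own-strand, opposite-strand and strand-ignoring counts, with 1 point per replicate. The own-strand count of Mir126a and the opposite-strand count of Mir126b lie together between 308555 and 353172 reads, while the other counts are between 0 and 5 reads.

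The 3 count columns of the tables fit together read by read at this locus. The opposite-strand count of Mir126b was 353168 in replicate 1 and 308555 in replicate 2, short of the own-strand count of Mir126a by 4 reads and 1 read. Those 4 reads and 1 read are also the whole count of Mir126a in the column that ignores strand, where Mir126b had 0 in both libraries. In the other direction, the opposite-strand count of Mir126a was 5 and 0, the same as the own-strand count of Mir126b. The numbers are those that arise when a read that overlaps both genes is given to neither once strand is ignored.

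The column that ignores strand kept 0.00113% of the reads of Mir126a in replicate 1 and 0.000324% in replicate 2. The reads lost there, 353173 and 308555, made up 35.7% and 37.0% of the 988119 and 833648 reads that this column set aside as ambiguous. When strand was used, no read was ambiguous in either library. The level of miR-126 in these tables thus depends on reading the stranded column.

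The minus-strand share of the locus was compared with reads on the opposite strand elsewhere. It was 0.00142% of 353177 reads in replicate 1 (exact 95% interval 0.00046 to 0.0033) and 0% of 308556 in replicate 2, which allows up to 0.000972%. At the 2138 genes without a microRNA on the other strand, opposite-strand reads made up 0.00137% in replicate 1 (0.000989 to 0.00184) and 0.00105% in replicate 2 (0.000678 to 0.00155). The share at the locus in replicate 1 was close to that of the other genes and its interval holds their value. The exact interval of the 0 in replicate 2 reaches 0.0012%, which also takes in the 0.00105% of the other genes, so no difference was detectable there.

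Those opposite-strand reads were not spread evenly. They numbered 68 over both libraries, fell in 24 genes, and 9 of these genes had 10 or fewer reads of their own. Mir200a alone had 13, and Mirlet7b had 8 beside 121669 reads of its own. Over the 131 such genes with at least 1000 own-strand reads in sum, the share was 0.000513% in replicate 1 and 0.000549% in replicate 2. The 10 most abundant of these genes, from Mir22 to Mir30a, had none beside 3526865 reads of their own, which allows up to 8.5e-05%. Whether the 5 minus-strand reads of the locus came from Mir126b or from Mir126a was not tested, and at 5 reads in 1 library the files do not tell them apart.

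The tables hold 32 pairs of microRNA genes that overlap on opposite strands, 64 genes in all. With both libraries summed, 22 pairs had at least 100 reads. Among these, Mir126a and Mir126b came second in reads, with 661733 or 36.3% of all reads of such pairs. Mir378a with Gm25301 had 952433 reads, and the third largest, Mir30e with Mir30f, had 60765. Mir191 with Gm24083 had 41000 and Mir338 with Mir3065 had 21706.

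In every one of the 22 pairs, 1 gene held nearly all the reads, and in 12 pairs the other gene had no read. The lesser gene's share at the miR-126 locus was 0.000756% with both libraries summed (exact 95% interval 0.000245 to 0.00176). It was larger in 8 pairs. The largest was that of Mir486, a microRNA of muscle and red cells, whose partner Mir3107 held 5.25% (4.73 to 5.81), with 8.06% in replicate 1 and 1.96% in replicate 2. Next came Mir24-1 with Mir3074-1 at 0.817%, Mir136 with Mir3071 at 0.653%, Mir1a-2 with Mir1b at 0.535%, and Mir337 with Mir3544 at 0.0487%. Mir24-1 and Mir1a-2 each share 28 bases with another hairpin, so reads of these genes can be missing. Reads of their partners, which overlap them, can be missing too, and the direction in which this moves the share was not tested. Whether the share at Mir486 carries the same limit was not tested. In all 8 the lower end of the interval lay above the upper end of that of the miR-126 locus. Mir378a had a smaller share, 0.000105% (2.66e-06 to 0.000585), and its interval overlaps that of the locus. Pairs with few reads cannot be placed below the locus, since a count of 0 in them allows a larger share than the one measured here.

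**Figure D2:**
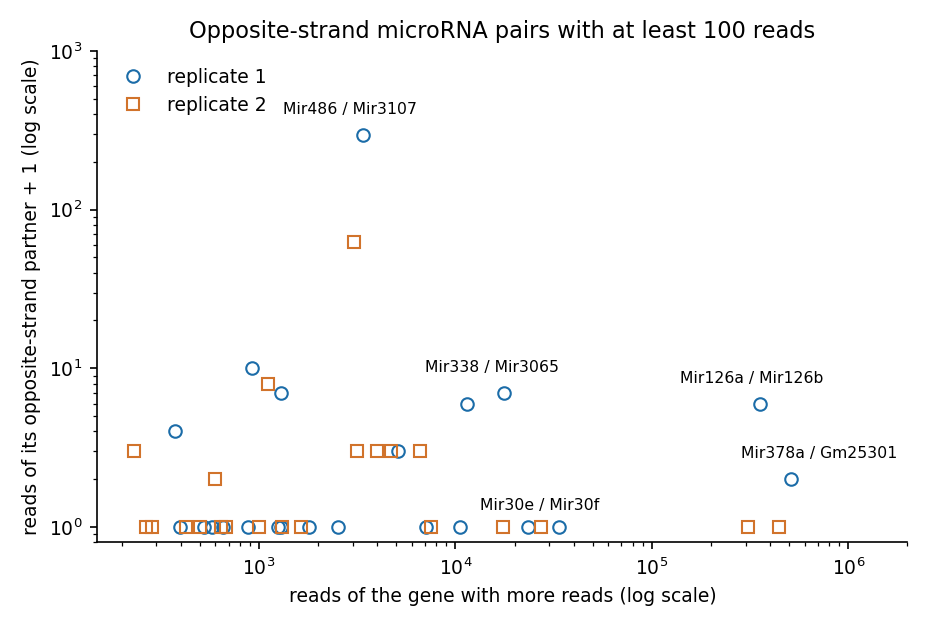
Reads of the more abundant gene of each opposite-strand pair (horizontal, log scale) against reads of its partner + 1 (vertical, log scale), with 1 point per pair and replicate, for the 22 pairs with at least 100 reads in sum. Mir126a and Mir378a stand far to the right with at most 5 partner reads, and Mir486 stands at the top with 295 and 61.

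Among all microRNA genes Mir126a ranked in place 3 in both libraries, in reads that aligned to 1 locus. Genes with copies, such as those of miR-1 and miR-133, are not placed by this order, since reads with more than 1 alignment are in no gene's count. Above it were Mir378a, carried by the metabolic regulator Ppargc1b, at 130385 ± 10039 CPM and Mir22, known from heart and skeletal muscle, at 119561 ± 13609 CPM. Below it were Mir143, of smooth muscle, at 86966 ± 5761 CPM, Mirlet7g at 49724 ± 1188 CPM and Mirlet7i at 41638 ± 2970.2 CPM. The gap of 3656 CPM between Mir126a and Mir143 was smaller than the SD of either gene, so their levels are not separated beyond the spread over libraries. Both genes were higher in replicate 2, and that shared shift is part of each SD.

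Ratios taken within a library remove what shifts a whole library. The log2 ratio of Mir126a over Mir143 was 0.04 in replicate 1 and 0.07 in replicate 2, a mean of 0.06 ± 0.02 or 1.04-fold. Mir126a was below Mir22 by log2 ratios of −0.36 and −0.43, and below Mir378a by −0.53 and −0.52. It exceeded Mirlet7g 1.82-fold (log2 ratio 0.86 ± 0.15). Each of these directions was the same in both libraries. With 2 libraries the smallest p of an exact two-sided sign-flip test is 0.5, so none was tested.

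Mir126b lay far lower in the order, in place 424 at 0.605 ± 0.855 CPM. With both libraries summed, 405 genes had more reads than its 5 and 17 others had the same number. The genes just above it in mean CPM were Mir5116, with 4 and 1 reads, and Mir6935 and Mir7093, each with 0 and 4. Just below were Mir7010, Mir344b and Mir3059, each with 1 and 3. None of these neighbours can be ordered against Mir126b at such counts. The median of the 639 genes with any read was 2.37 CPM.

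**Figure D3:**
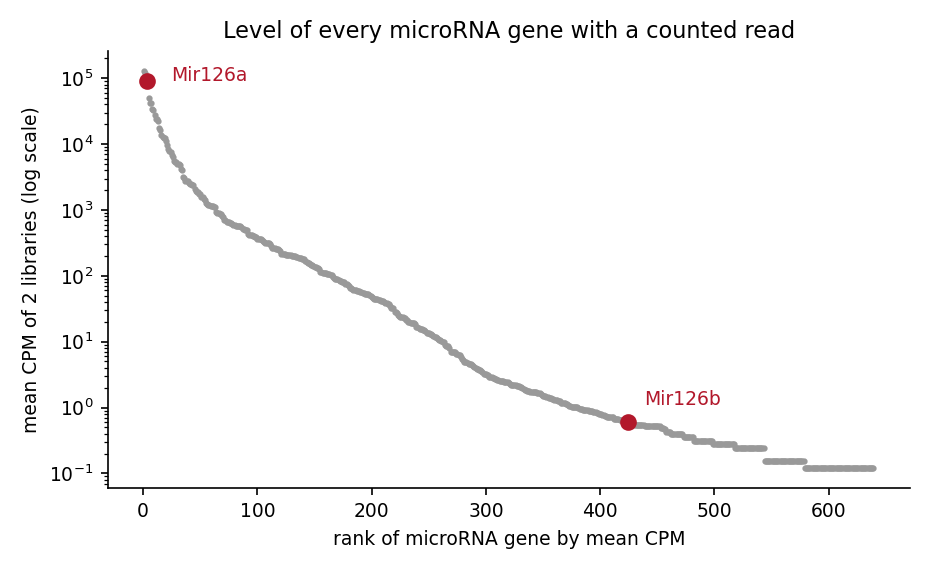
Mean CPM of the 2 libraries (vertical, log scale) of the 639 microRNA genes with a counted read, ordered by level. Mir126a sits in place 3 at 90623 CPM and Mir126b in place 424 at 0.605 CPM.

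Mir126a was then set beside microRNAs of the cells that share the muscle with endothelium. The lists held 39 other genes, and all 39 were below Mir126a in both libraries. Mir126a was in place 3 in each library, and the genes above it, Mir378a and Mir22, are on no list. Any list without these genes would give the same result, so the count of 39 tests nothing beyond that place. Some listed genes share long stretches with another hairpin, as given below, and reads can be missing from their counts. The lists were also chosen with earlier results of these data known, so the count of 39 describes the level of Mir126a and is not independent evidence.

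The first list held 21 microRNAs that have been described in endothelium but are made in other cells too. Of these, 17 had a mean of at least 10 CPM and 4 had less, and 10 have 20 or more bases in common with another hairpin, so that reads common to both copies can be missing from their counts. The list summed in replicate 1 to 115234 CPM and in replicate 2 to 103646 CPM, so Mir126a alone equalled 0.828 of the mean sum. Mir23b, of a cluster linked to vessel growth, came closest at 41438 ± 4161 CPM, and Mir126a exceeded it 2.19-fold (log2 ratio 1.13 ± 0.26). Mir23a followed at 32620.4 ± 3687 CPM. Mir10b, a microRNA of a Hox cluster, had 12572 ± 1321 CPM (log2 ratio of Mir126a over Mir10b 2.85 ± 0.03), and Mir27b had 9804 ± 784 CPM. Mir23a, Mir23b and Mir27b are among those that share 20 bases with a relative.

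Other genes of this list were lower still. Mir10a stood at 4255 ± 26.3 CPM, Mir130a at 2743 ± 637 CPM, Mir27a at 1935 ± 39.5 CPM, Mir17 at 1394 ± 153 CPM and Mir20a at 931 ± 9.48 CPM. Mir221 and Mir222, known for restraining endothelial growth, had 351 ± 34.0 and 39.1 ± 0.423 CPM. The growth factor responsive Mir132 had 202 ± 0.396 CPM, and the hypoxia microRNA Mir210 had 58.8 ± 20.8 CPM. Mir24-2, Mir92-1, Mir18 and Mir24-1 ranged from 421 down to 81.4 CPM. Mir27a, Mir92-1, Mir24-1 and Mir24-2 share 20, 22, 28 and 30 bases with another hairpin, so their counts can be too low. Mir218-2, carried by Slit3, had 6 and 11 reads, and Mir218-1, carried by Slit2, had 2 and 4. Mir19a had 2 and 1 reads and Mir19b-1 had 3 and 1, so none of these last genes was measured well. Mir218-1 and Mir218-2 share 22 bases with another hairpin and Mir19b-1 shares 25. Reads of these 3 genes can therefore be missing at any depth.

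The smooth muscle and pericyte list, Mir143 and Mir145a, summed in replicate 1 to 85297 CPM and in replicate 2 to 93638 CPM. Mir126a was 1.01-fold of its mean. Nearly all of that sum was Mir143. Mir145a had 2501 ± 137 CPM, and Mir126a exceeded it 36.2-fold (log2 ratio 5.18 ± 0.04). Neither gene shares 20 bases with another hairpin. Mural here means the smooth muscle cells and pericytes that line vessels from outside.

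The muscle fibre list of 9 genes summed to 28030 ± 2078 CPM, and Mir126a was 3.23-fold of that. Mir206, the skeletal muscle microRNA, supplied 27262 ± 2019 CPM and lay below Mir126a 3.32-fold (log2 ratio 1.73 ± 0.01). The others ran from Mir1a-2 at 331 ± 22.8 CPM and Mir499 at 266 ± 27.4 CPM through Mir208b at 109 ± 8.85 CPM, Mir133a-1 at 24.5 ± 3.95 CPM, Mir1a-1 at 13.6 ± 1.82 CPM and Mir133b at 13.4 ± 1.21 CPM to Mir208a at 6.56 ± 0.385 CPM and Mir133a-2 at 3.28 ± 0.193 CPM. Of the 9, 5 share at least 20 bases with another hairpin, namely the Mir1a and Mir133 loci. Reads that fit more than 1 of these copies were left uncounted, so the ratio to the muscle fibre list can be too high and does not rank miR-126 against miR-1 or miR-133. For scale, the reads of Mir126a equalled 2.54% of the reads aligned to several loci in replicate 1 and 2.51% in replicate 2.

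Blood cells were checked because platelets and blood cell precursors carry miR-126. The leukocyte list summed in replicate 1 to 2326 CPM and in replicate 2 to 2425 CPM, with all 5 genes detected. Mir155 had 791 ± 113 CPM, Mir150 510 ± 28.2 CPM, Mir146 500.2 ± 32.6 CPM and Mir142 206 ± 8.59 CPM. Mir223, abundant in myeloid cells and platelets, had 436 CPM in replicate 1 and 300.3 CPM in replicate 2, and Mir126a exceeded it 249.9-fold on average (log2 ratio 7.97 ± 0.50). The red cell genes Mir451a and Mir144 had 311 ± 0.523 and 88.5 ± 7.49 CPM and summed to 405 and 394 CPM. Mir126a was thus 38.1-fold of the leukocyte sum and 227-fold of the red cell sum. Mir146 shares 21 bases with another hairpin, so the leukocyte sum can be too low. The part of blood in the reads of Mir126a was not tested.

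**Figure D4:**
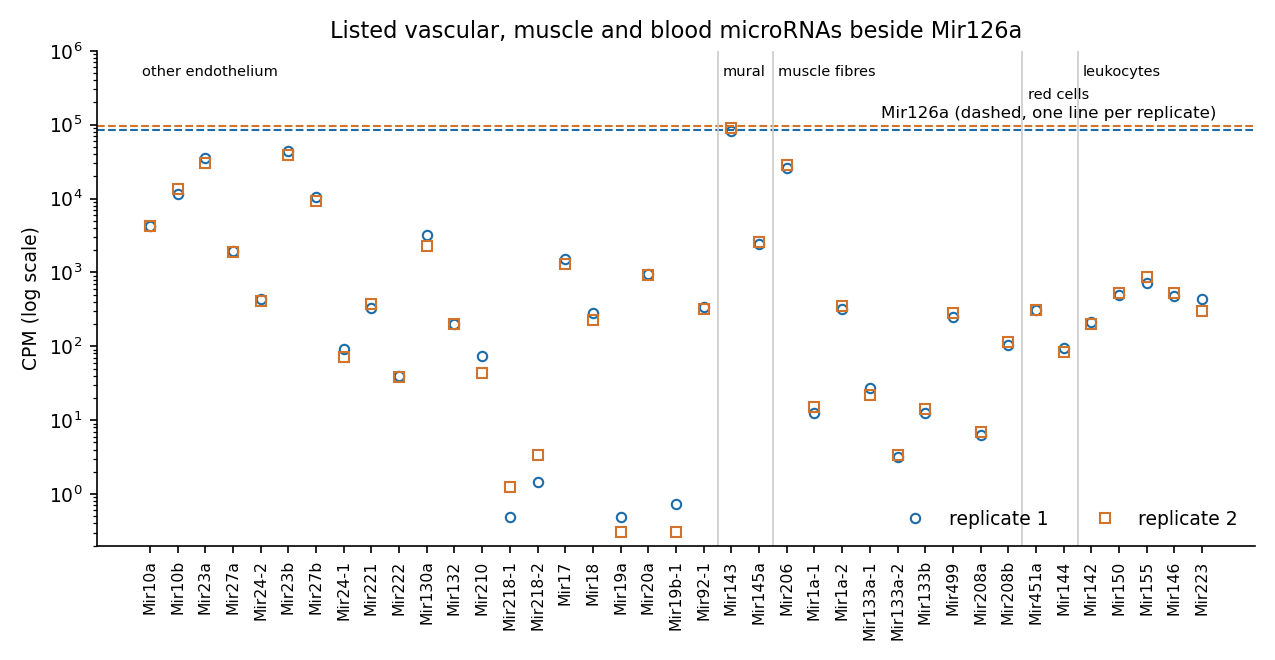
CPM (log scale) of the 39 listed genes in each replicate, grouped by list ("mural" stands for smooth muscle and pericytes), with Mir126a as a dashed line per replicate. Mir143 comes closest to the lines from below, at 82893 and 91040 CPM, and the other listed genes stay at or below 44380 CPM.

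The last comparison was between the 2 libraries, 1 from each animal. Mir126a was higher in replicate 2, with a log2 ratio of replicate 2 over replicate 1 of 0.33 (1.26-fold), after TMM scaling and with 1 CPM added. TMM sets the libraries level by their middle genes. The ratio was 0.17 (1.12-fold) when libraries were scaled to their total counts. Direction was the same under both, and also under DESeq2 size factors (0.39) and upper-quartile scaling (0.46). With 1 library on each side the ratio has no replicate check and no test.

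Of the 2 members, 1 was at or above a mean of 10 CPM and could be compared in this way, and Mir126b could not. Mir126a was past 1.2-fold toward replicate 2, as were 41 of the 261 genes compared (15.7%), while 65 (24.9%) were past 1.2-fold in the other direction. It was not past 2-fold, which 1 gene (0.383%) was toward replicate 2 and 13 (4.98%) were toward replicate 1. Under total-count scaling Mir126a was not past 1.2-fold either. Of the 261 genes, 75 (28.7%) differed by more than Mir126a in absolute size, so its difference lay within the spread of all genes. That share was 64.8% under total-count scaling, 20.7% with DESeq2 size factors and 16.9% with upper-quartile scaling. It was 46.6% with no minimum and 20.6% with a minimum of 100 CPM. The median ratio of all 261 was −0.05 under TMM and −0.21 under total-count scaling, a shift of the whole scale by more than 0.1.

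Relative to the other genes, Mir126a stood toward the upper end. Its ratio was exceeded by 22 of 261 genes (8.43%) under TMM, by 24 under total-count scaling, and by 22 under both other scalings. Among the 20 most abundant genes its ratio was in place 3, in a range from −0.21 for Mir411 to 0.40 for Mir22 with a median of 0.10.

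Likeness to Mir126a could be measured over these 2 libraries alone, as closeness of the log2 ratio among the 62 other genes that averaged 1000 CPM or more. The 5 closest were Mir196a-2 (0.33), Mir378a (0.32), Mir206 (0.32), Mir143 (0.30) and Mir10b (0.38). The set joins microRNAs known from muscle fibres, smooth muscle and Hox clusters. A single ratio places many genes close together, so it is a description of these libraries.

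The other endothelium list was mixed between the libraries. Of its 17 genes at or above 10 CPM, 10 were higher in replicate 2 and the median log2 ratio was 0.07, where 44.1% of all 261 genes were higher and their median was −0.05. The count was 4 of 17 under total-count scaling, 11 with DESeq2 size factors and 13 with upper-quartile scaling, where 20.3%, 51.0% and 61.7% of all 261 genes were higher. The counts moved with the scaling as those shares did. Mir10b (0.38) and Mir221 (0.36) had ratios near that of Mir126a, Mir23b (−0.04) and Mir23a (−0.06) were near 0, and Mir130a (−0.31) and Mir210 (−0.56) were on the other side. To be read against the same shares, both mural genes were higher in replicate 2 under all 4 scalings (0.30 for Mir143 and 0.28 for Mir145a). In the muscle fibre list 6 of the 7 genes at or above 10 CPM were higher under all 4 scalings. Its median of 0.33 is the ratio of Mir133b, which had 52 reads in replicate 1 and 46 in replicate 2. At such counts the lists cannot be ordered by how near their medians lie to the ratio of Mir126a. In the leukocyte list 4 of 5 were higher (median 0.28), or 3 of 5 under total-count scaling, while Mir223 was lower (−0.37). Of the 2 red cell genes (median 0.08), 1 was higher under TMM, 0 under total-count scaling and 2 under the other scalings. The part of these cell types in the ratio of Mir126a was not tested.

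**Figure D5:**
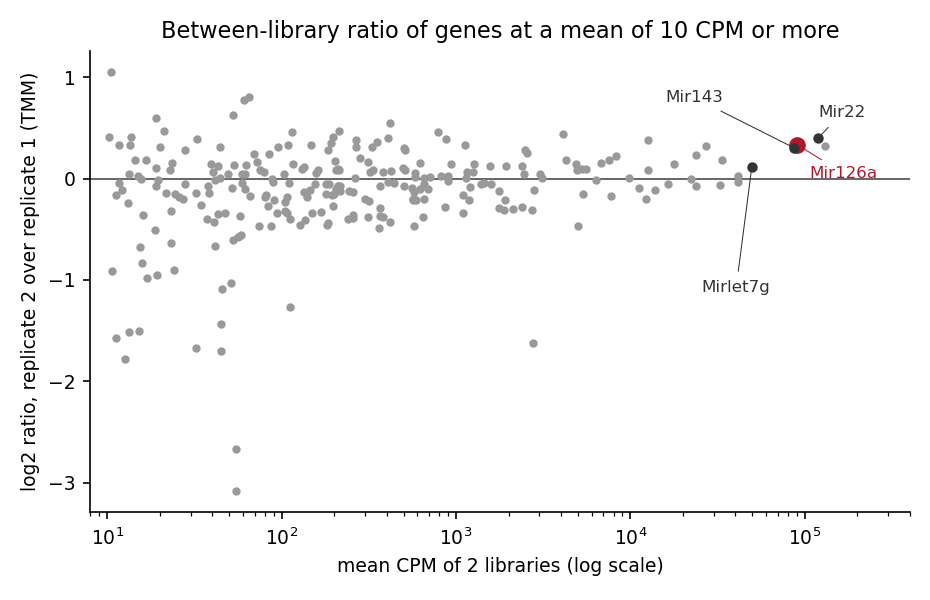
Log2 ratio of replicate 2 over replicate 1 after TMM scaling (vertical) against mean CPM (horizontal, log scale) for the 261 genes that averaged 10 CPM or more, 1 point per gene. Mir126a at 0.33 lies beside Mir143 at 0.30, above the zero line and inside the spread of the other genes.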

How the data were processed

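Each library came as a table of raw read counts deposited by the authors, which covers 2202 microRNA genes in 3 count columns (strand ignored, the gene's strand, the opposite strand), for mm10 with GENCODE M21, per the deposited file descriptions. The sources used here do not name an aligner, a counter or a trimming step. Another 4 rows hold reads of no gene and were left out of library sizes. In replicates 1 and 2, 70.4% and 73.3% of reads aligned to several loci, 7.05% and 6.02% were unmapped and 1.63% and 1.51% lay outside any gene. That reads aligned to several loci are in no gene's count is taken from the table's layout. The labels give both mice the same donor identifier, read here as the strain.

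The count on the gene's strand was used, as CPM with mean and SD over 2 libraries. Shares have exact Clopper-Pearson 95% intervals (scipy 1.17.1), with 3 counts as the limit for a count of 0. Ratios within a library are log2 of counts + 0.5. Ratios between libraries are log2 of CPM + 1 for genes at or above 10 CPM on average, scaled by TMM (edgeR 4.0.16, factors 1.06 and 0.944), a step checked on simulated data. Alternatives were DESeq2 1.42.0 size factors, total-count and upper-quartile scaling, other minimums, pseudocounts, columns and library sizes, and each library left out. RNAfold (ViennaRNA 2.7.2) ran with default settings. Sequences are from RefSeq (GRCm38.p6), where both members matched and equal the GENCODE hairpins. Members, lists and tests were chosen with earlier results of these data known. Named genes were the members, the 3 genes on either side of each in mean CPM, the 5 genes nearest to Mir126a in ratio, up to 5 opposite-strand pairs above the locus and the 5 with most reads, and all list members. The comparison with opposite-strand reads at other genes, and the genes named there, were chosen after the values were seen. A single group of 2 animals allows no test between conditions.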

Additional observations from a re-analysis of the deposited data

How the results depend on the processing

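With the column that ignores strand, the level of Mir126a moved from 90623 to 0.845 CPM, listed genes below it in both libraries fell from 39 to 5, and its log2 ratios reversed to −16.90 over Mir143, −11.78 over Mir145a, −15.83 over Mir23b, −14.10 over Mir10b, −15.22 over Mir206 and −8.99 over Mir223. As inferred from the counts, that column gives a read that overlaps both genes to neither. Per 1000000 of all reads the level was 18155, and with Mir126a left out of the library size 99690, both set by the denominator. Taken from the opposite-strand count of Mir126b, an alternative chosen after seeing the data, it was 90622 CPM. The log2 ratio between libraries was 0.17 with total-count scaling, 0.39 with DESeq2 size factors and 0.46 with upper-quartile scaling, against 0.33 with TMM, and other minimums and pseudocounts left it at 0.33.

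Leaving out each replicate in turn gave 85413 to 95833 CPM for Mir126a, 0 to 1.21 CPM for Mir126b, a minus-strand share of 0% to 0.00142%, and 7 to 8 pairs with a larger lesser share. Without replicate 1, Mir126b had no read at all. With at least 10 or at least 1000 reads per pair, 8 of 24 and 7 of 19 pairs had a larger share. Of 67 alternative values over 14 results, 48 kept their direction and moved by less than the spread, 13 moved and 6 reversed. Leaving out 1 of 2 libraries always moves their mean by less than the SD. For levels, shares and ratios averaged over libraries, that part of the tally was therefore fixed in advance and is no evidence of stability. No paired analysis was possible because there is only 1 group. Depth limits Mir126b, at 0 to 5 reads, and not Mir126a.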
